A study of Mus musculus with 16 samples.

Results

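Dense runs of accessible non-promoter regions are stretches of chromosome in which 5 or more regions of open chromatin followed each other closely. Their members were selected on the measured positions in the deposited list of accessible regions of mouse embryonic stem (ES) cells. Autosomal regions centred in no promoter (1000 bp upstream to 100 bp downstream of any transcription start site, TSS) were ordered by start, successive regions with a gap of at most 5000 bp were joined, and regions in runs of 5 or more were kept. This gave 1233 members in 209 runs, of 62759 autosomal non-promoter regions and 81132 regions in all. The study asked how natural fluctuations of the pluripotency factors SOX2 and OCT4 relate to the state of ES cells. ATAC-seq, in which a transposase cuts and tags open DNA, was performed on 12 libraries of the SBROS line. In these cells, derived from CGR8 with reporters for Sox1 and Brachyury, both SOX2 alleles carry a SNAP tag and 1 OCT4 allele a HALO tag, and they were kept in serum with LIF and the inhibitors CHIR99021 and PD184352. Cells in G1 phase were sorted into 4 populations, named by a high (H) or low (L) level of SOX2 (S) and then of OCT4 (O) as SHOH, SHOL, SLOH and SLOL, with 3 biological replicates of each. The list pools the peaks of all 12 libraries and holds positions alone, so no value could be given by library or population, the depth behind a region was unknown and the ES cell label could not be checked against markers. Another 4 samples, from ChIP-seq for OCT4 or SOX2, were not used here.

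Enhancers are stretches of DNA that raise transcription of a gene from a distance, and they are usually found as short open regions bound by transcription factors. Several enhancers often lie close together near genes that define a cell type, and the most heavily occupied groups of them are called super-enhancers. In ES cells OCT4 and SOX2 bind many enhancers together, at a composite element in which a SOX site stands next to an octamer, beside factors such as KLF4 and ESRRB. Open regions also occur at unmethylated CpG islands of developmental genes, at CTCF sites that organise chromatin loops and along bodies of transcribed genes.

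Sequences at 5 members show how different the DNA inside runs was. All are from the plus strand of GRCm38 (mm10), 5′ to 3′, and capitals mark any site for an octamer (ATGCAAAT), SOX factors (CCATTGT or CCTTTGT), KLF factors (GGGCGTGG or GGGTGTGG), ESRRB (TCAAGGTCA) and SP factors (GC-box, GGGCGG) on either strand. In the central 200 bp of all 79278 autosomal regions, 1.53% held the octamer, 8.95% a SOX site, 7.73% a KLF site, 1.34% an ESRRB site and 19.3% a GC-box. These windows ran past the called region where it was narrower. A match is a description of letters, not evidence that a factor bound. The first sequence was the 1 member with both an octamer and a SOX site in its central 200 bp. It lay in intergenic sequence 48703 bp from the TSS of Gm43997, at chr6:94750718-94750779. The other 4 were chosen after the runs were seen, as the non-exonic region with the most such sites in its run. They came from introns of Slc31a1 (chr4:62378588-62378787), Ppp2r5a (chr1:191391395-191391594) and Cdx2 (chr5:147304782-147304981), and from intergenic sequence beside Sox4 (chr13:28958415-28958614). Sequences were also drawn from the runs of Zfp42, Neurog2, Foxa2 and Gm13239, and held no such site. These and 1 from Ccdc92, with a SOX site, are not printed.
Gm43997: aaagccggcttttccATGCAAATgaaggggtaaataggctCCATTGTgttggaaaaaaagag
Slc31a1: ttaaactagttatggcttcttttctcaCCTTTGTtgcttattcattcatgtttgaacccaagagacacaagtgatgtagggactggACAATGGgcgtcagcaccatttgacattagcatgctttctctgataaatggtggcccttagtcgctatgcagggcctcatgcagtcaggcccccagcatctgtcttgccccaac
Ppp2r5a: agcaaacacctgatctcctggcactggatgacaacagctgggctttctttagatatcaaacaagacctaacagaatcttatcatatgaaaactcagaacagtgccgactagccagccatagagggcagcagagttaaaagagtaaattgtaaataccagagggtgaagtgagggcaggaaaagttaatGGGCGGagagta
Cdx2: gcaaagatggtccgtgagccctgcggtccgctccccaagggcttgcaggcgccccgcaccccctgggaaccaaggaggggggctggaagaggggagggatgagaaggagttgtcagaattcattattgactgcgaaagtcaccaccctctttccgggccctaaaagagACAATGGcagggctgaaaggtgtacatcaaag
Sox4: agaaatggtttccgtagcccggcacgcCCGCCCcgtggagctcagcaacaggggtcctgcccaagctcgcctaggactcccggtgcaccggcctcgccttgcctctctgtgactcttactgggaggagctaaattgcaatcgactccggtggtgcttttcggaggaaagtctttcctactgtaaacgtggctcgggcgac
The Gm43997 sequence held an octamer followed by a SOX site on the same strand. The Slc31a1 stretch, around a region of 116 bp, held 2 SOX sites, 1 of them outside the called region, and was 47.0% GC, whereas the Sox4 sequence held a GC-box and was 60.5% GC.

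Members made up 1.96% (95% Wilson interval 1.86 to 2.08%) of the autosomal non-promoter regions. Most such regions stood alone, with 37188 having no other within 5000 bp, and the number of runs fell at each step from 8235 runs of 2 to 130 runs of 5, 40 of 6, 22 of 7 and 8 of 8. A further 9 runs held 9 or more regions and together 125 members, 10.1% of them. Runs extended over 3228 to 26061 bp with a median of 11907 bp. Regions covered a median of 16.3% of a run (quartiles 12.7 and 20.6%), so most of the DNA in a typical run was not called open. Single members were 112 to 3210 bp wide with a median of 294 bp (quartiles 191 and 455), against a median of 321 bp (quartiles 208 and 486) in the other non-promoter regions. Of the members, 28.3% were under 200 bp wide, against 22.5% of the others. The 1024 gaps inside runs had a median of 1812.5 bp, and 63 of them were at most 100 bp long. These sizes and spacings come from the calls that the choice used and are given as description. Intervals for shares of members treat members as independent although they come in runs, and so are too narrow.

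Widths and GC content just inside the size threshold were close to those just outside it. The 650 regions in runs of 5 had a median width of 303 bp and a median GC content of 52%, and the 2024 regions in the 506 runs of 4 a median width of 290 bp and the same median GC. An octamer was found in 2.00% of the former and 1.28% of the latter, a SOX site in 7.08% and 9.29%, and a KLF site in 8.15% and 7.71%. At the gap threshold, 87 gaps inside runs were 4500 bp or longer, up to 4999 bp. Outside, 24 of the 411 gaps that bounded a run were at most 5500 bp, the smallest being 5003 bp.

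**Figure D1:**
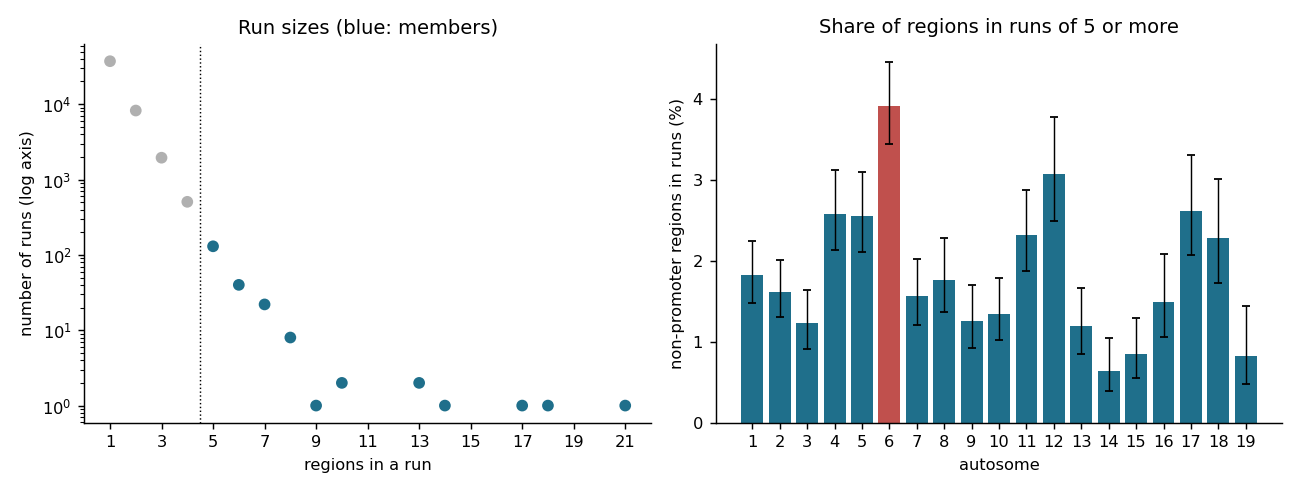
Left, number of runs (log axis) against the number of autosomal non-promoter regions in the run, with members in blue. Right, percentage of each autosome's non-promoter regions that were members, with 95% Wilson intervals that treat members as independent. Chromosome 6 (red) stood at 3.91% and chromosome 14 at 0.643%.

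Runs were spread unevenly over the autosomes. Chromosome 6 held 39 of the 209 runs (18.7%, 95% Wilson interval 14.0 to 24.5%) and 220 members, with 6.08% of the autosomal sequence and 8.96% of the non-promoter regions. The next highest count was 16 runs, on chromosome 5. The share of non-promoter regions that were members was 3.91% on chromosome 6 and 1.77% over the other autosomes together, from 0.643% on chromosome 14 to 3.07% on chromosome 12. Chromosome 6 also had the highest density of non-promoter regions, 37.6 per Mb against 19.9 to 28.6 on the other autosomes. Its share of protein-coding genes with a region at their promoter was 59.4%, near the 60.5% over all autosomes. The density rose along chromosome 6, from 23.0 per Mb in its first 10 Mb to 55.2 between 120 and 130 Mb, 56.9 between 130 and 140 Mb and 63.6 in the remainder. Such a rise was not particular to chromosome 6. Between the first 10 Mb and 140 to 150 Mb it went from 15.3 to 53.1 on chromosome 4 and 12.2 to 53.3 on chromosome 5. It was smaller on chromosome 19, from 18.9 to 26.8 between 50 and 60 Mb. The median over the 239 full 10 Mb windows of the autosomes was 23.5 per Mb, and of these windows those from 120 to 130 and from 130 to 140 Mb of chromosome 6 were the densest. Of the 39 runs, 35 began beyond 80 Mb and 19 beyond 120 Mb. Chromosome 12, with the next highest share of members, had 23.6 per Mb. Close spacing defines a run, so density and run counts come from the same positions. The part of density in the number of runs was not tested. Copy number could not be examined from the list.

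The 4 runs with the most regions each lay wholly inside the body of a gene. The run with most regions was in Ccdc92, which encodes a coiled-coil protein. Its 21 regions, all intronic, extended over 25765 bp (chr5:124836014-124861778) and covered 44.8% of it, with a median gap of 392 bp. Slc31a1, the gene of the high-affinity copper importer CTR1, held 18 regions over 21685 bp (chr4:62366292-62387976), with a median gap of 389 bp. The end of this run also overlapped the body of Cdc26. In Ppp2r5a, which encodes a regulatory subunit of protein phosphatase 2A, 17 regions covered 55.4% of 20133 bp (chr1:191371694-191391826), and single regions reached 2130 bp. Dtwd2 held 14 narrower regions (median 205 bp) that covered 14.5% of 22749 bp. These 4 genes were the protein-coding genes with the most members as closest gene, followed by Mical3 with 11 members in 2 runs.

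The regions of these gene-body runs were poor in GC, apart from those in Ccdc92. Their regions had a median GC content of 50.0% in Ccdc92, 44.3% in Slc31a1, 43.5% in Ppp2r5a and 42.0% in Dtwd2, against a median of 51.0% over the 209 runs (quartiles 48.5 and 54.5%). None of the 4 runs had a region with a KLF, ESRRB or CTCF site or an octamer in its central 200 bp. SOX sites were found in 7 of the 18 regions in Slc31a1, 3 of the 21 in Ccdc92 and none of those in Ppp2r5a and Dtwd2. No region of these runs shared 20-mers with another region of its run by the measure given below. Over all runs, 62 (29.7%, 95% Wilson interval 23.9 to 36.2%) lay wholly inside at least 1 annotated gene body. The highest covered share of any run, 67.1%, was at Smarca5, a chromatin remodeller gene, where 5 regions had a median GC content of 34.5%.

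**Figure D2:**
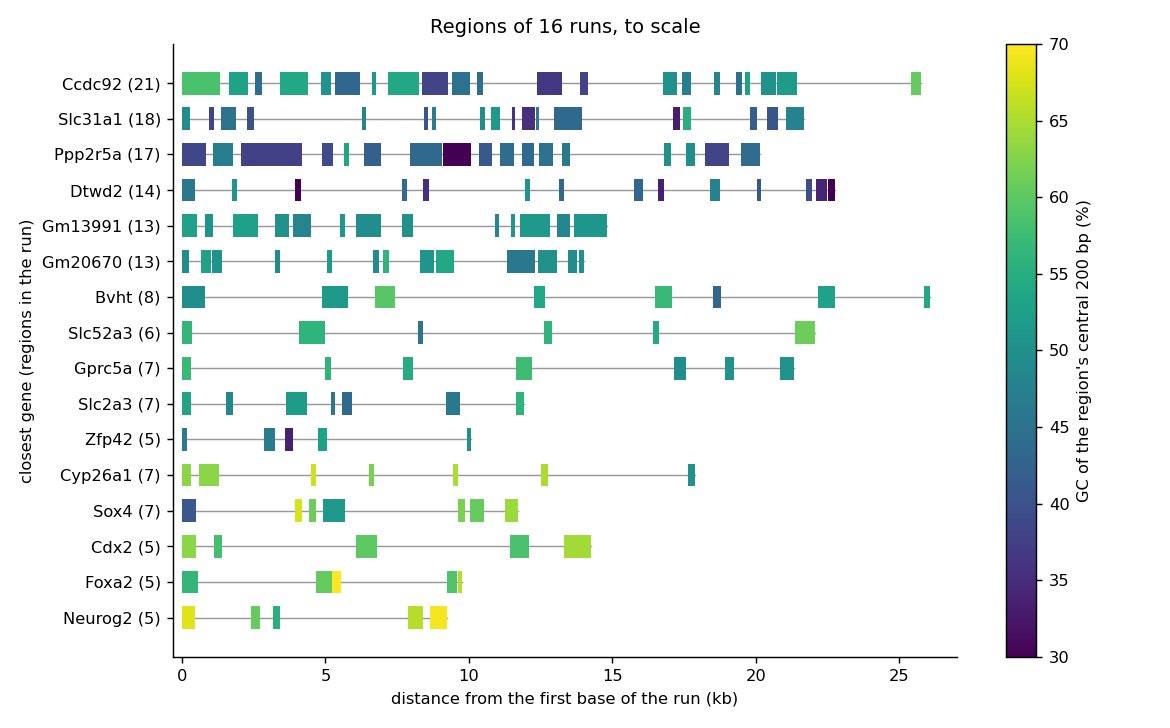
Regions (boxes, to scale) of 16 runs against the distance from the first base of the run in kb, with the closest gene and the number of regions at the left and the GC content of each region's central 200 bp in colour. Regions cover 44.8% and 55.4% of the runs in Ccdc92 and Ppp2r5a, whereas those of Slc52a3 and Gprc5a hold 6 and 7 regions over 22069 and 21324 bp.

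Another group of runs held regions that shared sequence with each other. In 12 runs at least 1 region shared 10% or more of its distinct 20-mers, on either strand, with another region of the same run. These were 52 members, 4.22% (95% Wilson interval 3.23 to 5.49%) of all, and in 6 runs they were at least as many as the other regions. The share depended on the length compared, and with 30-mers it was 1.87%. All 13 regions of the run whose closest gene was the pseudogene Gm13991 did so (chr2:116547171-116561994), as did 9 of the 13 closest to the lincRNA gene Gm20670 (chr7:64074566-64088565). Of the 10 regions closest to Gm49792 (chr17:3006586-3022585), 8 did. This run began 6585 bp after the first sequenced base of its chromosome, and runs on chromosome 3 (8 regions) and chromosome 4 (7 regions) began 341 and 5163 bp after theirs. In these 12 runs a median of 29.7% of the run was covered, and soft-masked repeats made up a mean of 39.5% of the regions' central 200 bp. Runs without shared 20-mers, with fewer than 9 regions and a median GC content between 45 and 60% had 15.7% and 19.3%. The part of repeated sequence in the calling of these regions was not tested.

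Several runs on distal chromosome 4 stood among zinc-finger genes. The 4 described first were chosen after their values were seen. A run of 10 regions (chr4:145670647-145688392) overlapped Zfp980, with Gm13239 as the closest gene of 5 of them. Runs of 9 and 7 regions lay closest to the pseudogene Gm13147 and another run of 7 to Zfp988, all inside the long annotated gene Gm26624. Their median GC content was low, 42.0% in the first, 33.5 and 37.5% in the Gm13147 runs and 34.5% in the Zfp988 run. None of the 4 runs held a region with shared 20-mers. Other runs of this stretch differed. A run of 5 regions inside Zfp990 had a median GC content of 31.5% and 2 regions with shared 20-mers, and another of 5 inside Gm26624, closest to Gm13161, was at 50.0%. Runs at Tnfrsf8, Pdpn and Fblim1 had 52.5, 51.0 and 52.5%.

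Developmental regulators were found among the runs with GC-rich DNA. In 24 runs the median GC content of the regions was 60% or more. Apart from 2 that held shared 20-mers, these were 22 runs with 121 members, a mean CpG observed over expected ratio of 0.616 and repeats in 5.85% of the central 200 bp. The 153 runs of intermediate GC content without shared 20-mers and with fewer than 9 regions had 0.319 and 19.3%. A GC-box was found in 47 of the 121 regions (38.8%), against 100 of the 842 (11.9%) in the intermediate runs, and a KLF site in 4 (3.31%) against 78 (9.26%). Since the groups were formed by GC content after the values were seen, these are descriptions.

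Genes at these GC-rich runs included Sox4, a SOX-family transcription factor, with 7 regions over 11719 bp (chr13:28948244-28959962) that spanned its TSS. Neurog2, a proneural factor, had 5 regions over 9230 bp (chr3:127625322-127634551) with a median GC content of 65.5%. Foxa2, a forkhead factor of endoderm, and Cdx2, a factor of trophectoderm and posterior tissues, each had 5 regions, over 9761 bp (chr2:148039284-148049044) and 14257 bp (chr5:147293116-147307372). All 4 genes came from the fixed lists. Further genes, chosen after their values were seen, were Cyp26a1 (7 regions, median GC content 63.0%), which encodes an enzyme that degrades retinoic acid, Pax1, Uncx, Gdf7, Wnt10a and the cell cycle gene Ccnd1. At Foxa1 a run of 7 regions had a median GC content of 50.0%. At Sox4, Neurog2 and Foxa2 no region held an octamer, SOX, KLF or ESRRB site in its central 200 bp, and at Cdx2 only 1 did, a SOX site.

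**Figure D3:**
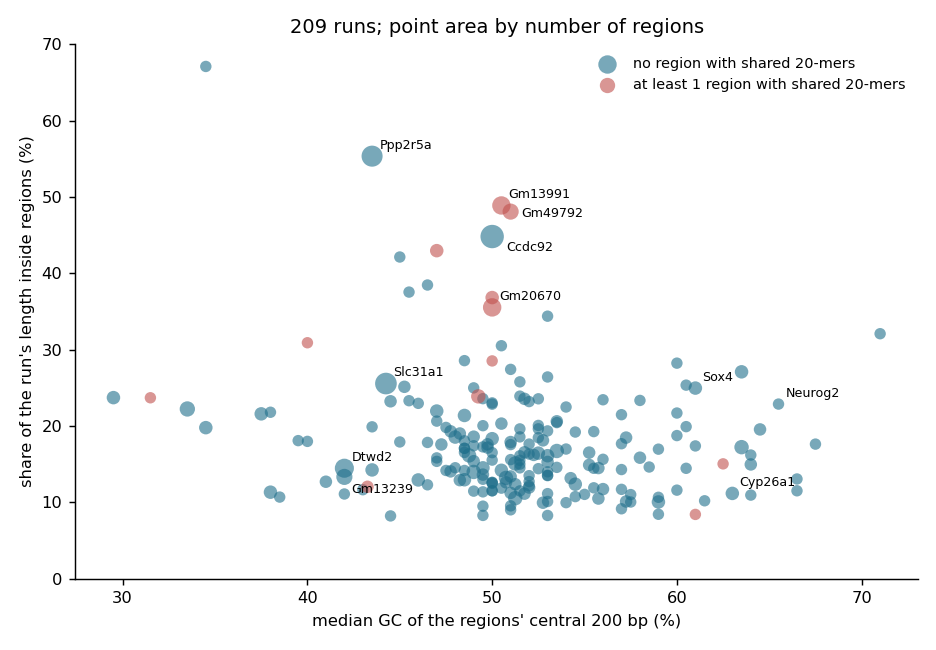
Each of the 209 runs by the median GC content of its regions' central 200 bp (%) and the share of its length inside regions (%), with point area by number of regions and runs with shared 20-mers in red. Most runs lie near 51.0% GC and 16.3% covered; Ppp2r5a, Ccdc92 and Gm13991 stand above, and Sox4, Neurog2 and Cyp26a1 to the right.

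A dense run lay near 3 of the 18 core and naive pluripotency factors, and not near Pou5f1 or Sox2. Of 20807 autosomal protein-coding genes, 338 (1.62%) had a run, defined as a TSS within 50 kb of it or members inside the gene body. Of the pluripotency factors 3 did (16.7%, 95% Wilson interval 5.84 to 39.2%). They were Zfp42 (REX1), a marker of naive ES cells, with all 5 regions of a run 21781 bp from its TSS, Prdm14 with a run 38820 bp away, and Klf5 with one 49389 bp away. Prdm14 and Klf5 were the closest gene of no member. Around Nanog, the nearest run, 53595 bp from the TSS and so outside the limit, was the 7 regions inside Slc2a3, the gene of the glucose transporter GLUT3. Within 50 kb of their TSS, Pou5f1 and Nanog had 10 and 12 non-promoter regions in runs of at most 3, and Sox2 6 in runs of at most 2. Klf2 had 13 with a run of 4. The 18 factors had a median of 8 non-promoter regions within 50 kb of the TSS, against 3 over all genes, and the median of their largest run was 3, against 1.

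The remaining fixed lists had 2 or fewer genes with a run. Of 12 formative and primed pluripotency genes it was Sox4 (8.33%), of 12 neuroectoderm regulators Neurog2 (8.33%), and of 16 mesoderm and endoderm regulators Cdx2 and Foxa2 (12.5%). In the Wnt pathway it was 2 of 20 (10%), the co-receptor gene Lrp6 (47518 bp from the TSS) and the repressor gene Tcf7l1 (35810 bp). In the Nodal and BMP pathway it was the BMP target Id1 (28035 bp), 1 of 20 (5%), and among 20 skeletal muscle and liver genes Myog (35265 bp). None of these 4 was the closest gene of a member. No gene had a run among 19 of the FGF and ERK pathway, 12 of the LIF and STAT3 pathway, 14 Polycomb and DNA methylation genes and 20 cytosolic ribosomal protein genes. With lists of 12 to 20 genes each count rests on few genes, and a list count of 0 of 20 has a 95% Wilson upper bound of 16.1%. The lists had medians of 4.5 to 9 non-promoter regions within 50 kb of the TSS, the ribosomal protein genes the lowest of these and the formative and primed genes the highest.

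The longest runs were not all among those with the most regions. The longest run, 8 regions over 26061 bp, was closest to Bvht (Braveheart), a long non-coding RNA gene known from heart development. Slc52a3, a riboflavin transporter gene, had 6 regions over 22069 bp (chr2:152007744-152029812), 5 of them intergenic, with every gap at least 3243 bp long. Mical3, which encodes an actin-oxidising enzyme, had runs of 6 and 5 regions over 11768 and 13280 bp, near the median extent, the first intronic and the second intergenic. Over all runs 75 were wholly intergenic, and 58 lay more than 50 kb from any protein-coding TSS. A promoter region lay inside or within 5 kb of 48 runs (23.0%, 95% Wilson interval 17.8 to 29.1%) and inside 21 of them.

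Members and the other non-promoter regions were then compared in 18 measures of sequence and annotation that the choice did not use, by autosome, since neighbouring regions share a locus. Of these, 17 were tested and adjusted together, leaving out the SOX-octamer composite, which no member held. None of the 17 differences passed the adjusted threshold. This rests on that choice, made after the counts were seen. With all 18 adjusted together, as first planned, the repeat and CTCF differences below had an adjusted p of 0.0368. GC content differed by less than the spread between autosomes, with a mean of 51.0% in members and 51.2% in the others (mean difference over 19 autosomes 0.019 ± 2.61 percentage points, SD; two-sided permutation p = 0.976, adjusted p = 0.987). This depended on the gap joined, with -3.69 points at 2500 bp (permutation adjusted p = 0.0475) and 1.05 at 10000 bp (permutation adjusted p = 0.000623). Soft-masked repeats took up 20.1% of the central 200 bp in members and 22.5% in the others. This difference was just outside the threshold, at -3.11 ± 4.98 points with members lower on 13 of 19 autosomes (permutation p = 0.00613, adjusted p = 0.0521). It passed in all 3 alternatives run for it, each chosen after the data were seen, at -4.35 points without the runs of 9 or more regions, -4.94 without the runs that held shared 20-mers and -3.98 with each run counted once (permutation adjusted p = 0.0303, 0.00272 and 0.0168). Intergenic sequence held 50.8% of members and 44.2% of the others, and introns 37.7% and 44.7%. Neither difference passed (intron -10.9 ± 19.3 points, lower on 12 of 19 autosomes, permutation p = 0.0239, adjusted p = 0.135). The intergenic difference was 8.23 ± 16.2 points, higher on 15 of 19 autosomes (permutation p = 0.0415, adjusted p = 0.176). It passed at 9.08 points without the runs of 9 or more regions (permutation adjusted p = 0.0482). The intron difference did pass at -4.66 points with gaps up to 10000 bp, -8.68 in runs of at least 4 and -10.7 with promoters of protein-coding genes alone (permutation adjusted p = 0.00678, 0.00697 and 0.0433), and at -13.0 without the runs of 9 or more regions (permutation adjusted p = 0.0303). It turned to 12.9 with gaps up to 2500 bp and 10.3 in runs of at least 10.

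Neither octamers nor SOX sites differed in frequency between members and other non-promoter regions past the adjusted threshold. An octamer was found in 22 members (1.78%, 95% Wilson interval 1.18 to 2.69%) and in 1.69% of the others (mean difference 0.85 ± 3.57 points, higher on 7 of 19 autosomes, permutation adjusted p = 0.519). A SOX site was found in 104 members (8.43%, interval 7.01 to 10.1%) and in 10.1% of the others (-2.11 ± 5.69 points, lower on 14 of 19, permutation adjusted p = 0.235). Only 1 member (0.0811%) held both in its central 200 bp, against 0.219% of the others. The composite SOX-octamer element was in no member and in 13 of the others. At the rate of the others 0.261 members would have held it. With a count of 0 in members no autosome could differ in the other direction, so this difference was not tested. KLF sites (7.14% against 7.53%; permutation adjusted p = 0.581) and ESRRB sites (1.38% against 1.57%; permutation adjusted p = 0.177) did not pass either. With gaps up to 10000 bp the KLF difference turned to 1.30 points and passed (permutation adjusted p = 0.00132), and the SOX difference passed at -1.19 (permutation adjusted p = 0.00678).

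CTCF sites were found in 3.65% of members (interval 2.74 to 4.85%) and 5.36% of the others. The difference was -1.71 ± 2.24 points, with members lower on 16 of 19 autosomes (permutation p = 0.00417, adjusted p = 0.0521), and passed only with the composite counted among the tests. It did not pass under any of the 6 other alternatives run for it, among them weighting by GC content (-1.50 points, permutation adjusted p = 0.135) and leaving out the runs of 9 or more regions (-1.32 points, permutation adjusted p = 0.0806). By run size, CTCF sites were found in 5.66% of regions that stood alone, 4.97% in runs of 2, 4.77% in runs of 3 or 4, 4.92% in runs of 5, 3.75% in runs of 6, 1.83% (interval 0.716 to 4.62%) in runs of 7 or 8 and none of the 125 regions in larger runs. Those 125 regions, from 9 runs, also held no octamer, KLF, ESRRB or STAT3 site, whereas 40.0% held a GATA site and 13.6% a SOX site. None of the other sites, for STAT3, TEAD, AP-1, MYC (E-box), OTX2, GATA or SP factors, differed past the adjusted threshold, the lowest adjusted permutation p among them being 0.177. TEAD sites did pass at -1.86 points in the central 100 bp (permutation adjusted p = 0.0199).

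Within runs, regions were also set beside the DNA between them. The central 200 bp of a region was paired with the middle 200 bp of the gap to the next region, in 739 pairs from 208 runs with gaps of at least 600 bp. A further 6 pairs, whose gap window overlapped another listed region, were left out. KLF sites were found in 55 regions (7.44%) and 27 gap windows (3.65%), with 51 pairs having a site in the region alone and 23 in the gap alone (two-sided exact McNemar p = 0.00152, adjusted p = 0.00606). Regions had a median GC content of 51.5% and the gap windows 46.5%. Among pairs within 5 percentage points of GC content the KLF difference was 0.946 points and did not pass (exact McNemar adjusted p = 0.999). SOX sites were in 68 regions and 48 gap windows (exact McNemar adjusted p = 0.0928), octamers in 14 and 5 (exact McNemar adjusted p = 0.0928), and ESRRB sites in 13 and 6 (exact McNemar adjusted p = 0.167). Pairs of the same run share a locus, which the test does not take into account. Of the motifs not tested this way, CTCF sites were found in 36 regions and 1 gap window, and GC-boxes in 96 and 23. GATA sites were in 156 regions and 199 gap windows, and OTX sites in 40 and 78.

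**Figure D4:**
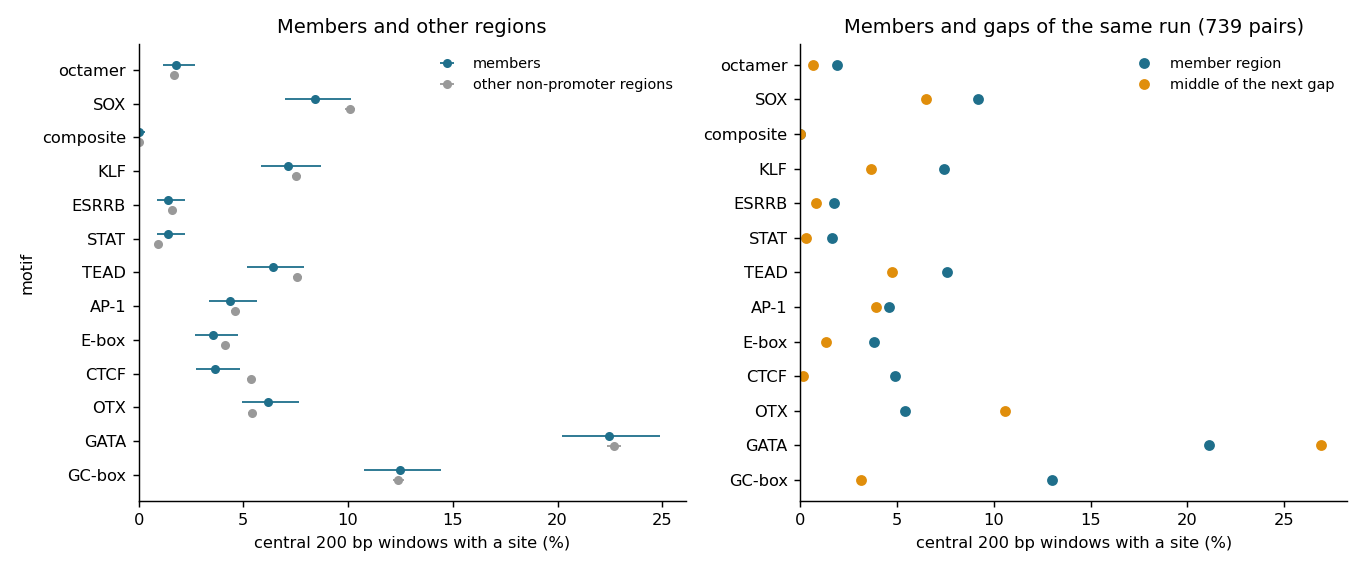
Percentage of central 200 bp windows with each of 13 motifs. Left, members (blue) and other autosomal non-promoter regions (grey) with 95% Wilson intervals; right, member regions (blue) and the middle of the next gap of the same run (orange) in 739 pairs. CTCF sites stand at 3.65% and 5.36% on the left, and GC-boxes at 13.0% and 3.11% on the right.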

How the data were processed

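The list of accessible regions is the authors' own: per the labels and the study's methods, reads were aligned to mm10 with STAR (2.5.3a), uniquely mapped reads were kept, duplicates were removed with Picard, peaks were called in each library with MACS2 (2.1.1.20160309), peaks of all libraries were merged and those overlapping a ChIP-seq input were discarded. The deposited columns are chromosome, start and end, with no score, so the depth behind each region is unknown. Regions were classed at their centre with GENCODE M21. The closest gene of a region, and its distance, use the nearest start of any transcript. Distances from runs to genes use the gene's 5′ end. Members and lists were chosen with earlier results of these data known. Computation used Python (3.11.15), numpy (2.4.6), pandas (2.3.3), scipy (1.17.1) and matplotlib (3.10.9). Tests were first run on simulated data. They were two-sided paired permutation tests (100000 sign flips over 19 autosomes, Benjamini-Hochberg over 17 of 18 measures) and exact McNemar tests (adjusted over 4 motifs). Wilson intervals cover counting error only. Those for members treat them as independent, although members come in runs, and are too narrow. A motif found in fewer than 5 members was not tested, a rule chosen after the counts were seen. Motifs were searched on both strands; the composite contains the octamer. Genes named by rule were those closest to most regions of the 10 runs with the most regions and the 5 longest runs, the 5 protein-coding genes with the most members and each list gene closest to a member; further genes were chosen after their values were seen. Alternatives changed the gap, run size, region filters, promoters, windows and GC content.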

Additional observations from a re-analysis of the deposited data

How the results depend on the processing

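No paired analysis was possible because the list pools the libraries, although the populations share replicate numbers. Over 224 recomputed values, 150 stayed on the same side of the threshold and in the same direction, or close to the reported value, a motif found in fewer than 5 members counting as not tested and not past it. The others follow, as percentage points of members minus other regions unless stated, and the cause of each change was not tested. The number of members followed from the gap, the run size and the region filters. Joining gaps up to 2500 bp gave 227 members in 36 runs, with a median width of 262 bp, 30.6% of runs near a promoter region, 47.2% inside a gene body and 52 genes with a run. Gaps up to 10000 bp gave 8613 members in 1366 runs, 315 bp, 34.3% near a promoter region and 2600 genes. Runs of at least 4 gave 3257 members in 715 runs and 1157 genes. Runs of at least 10 gave 116 members in 8 runs, 312.5 bp, 37.5% near a promoter region, 62.5% inside a gene body and 11 genes. Joining regions at most 500 bp apart gave 634 members in 115 runs, 315 bp, 16.5% near a promoter region and 199 genes. Leaving out regions under 200 bp gave 353 members in 60 runs, 385 bp and 105 genes. Promoters of 2000 bp to both sides left 769 members in 130 runs and 174 genes. Genes with a run numbered 157 with a limit of 10 kb and 154 as closest gene of a member. With 30-mers, 1.87% of members shared sequence within the run.

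Directions turned mostly where the reported difference was near 0, and 2 of the turned differences were themselves past the threshold. GC content was at -3.69 with gaps up to 2500 bp (permutation adjusted p = 0.0475). In runs of at least 10 it was -5.00, lower on all 7 autosomes, at the smallest p that 7 allow (permutation p = 0.0156). Its adjusted permutation p was 0.0625, and 0.03125 with all measures adjusted together, so the call rests on that choice. GC content did not pass at -0.819 without narrow regions, -1.04 with wider promoters and -0.056 without chromosome 6. With gaps up to 10000 bp it was 1.05 and also past the threshold (permutation adjusted p = 0.000623). The octamer difference turned to -0.411 with gaps up to 2500 bp, -0.0265 with gaps up to 10000 bp, -0.196 in runs of at least 4, -0.983 with neighbours joined and -0.640 without narrow regions. KLF sites turned to 1.30 with gaps up to 10000 bp, past the threshold (permutation adjusted p = 0.00132), and to 0.170 in runs of at least 4 and 0.940 with neighbours joined. They also turned to 0.0605 sites per kb over whole regions and to 0.0449 without runs of 9 or more. ESRRB sites turned to 1.58 and 0.0950 with gaps up to 2500 and 10000 bp. Introns turned to 12.9 with gaps up to 2500 bp and 10.3 in runs of at least 10, where SOX sites were at 4.68. AP-1 sites turned to 0.025 in the central 100 bp and 0.00659 per kb, GATA sites to 0.704 in the central 100 bp and 0.395 within GC bins, and GC-boxes to -0.0523 per kb.

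Some differences passed the threshold under an alternative alone. For introns these were -4.66 with gaps up to 10000 bp, -8.68 in runs of at least 4 and -10.7 with protein-coding TSSs alone. Introns also passed at -13.0 without runs of 9 or more. SOX sites passed at -1.19 with gaps up to 10000 bp and TEAD sites at -1.86 in the central 100 bp. ESRRB sites were at -1.32 without narrow regions, where 3 of 353 members held one, and were not tested. None of the 116 members in runs of at least 10 held an octamer, KLF or ESRRB site, which fixes the sign of their differences there (-1.74, -8.18 and -1.64), so these were not tested either. Without runs of 9 or more, the CpG ratio passed at a difference of 0.052 and intergenic sequence at 9.08. CTCF sites, just outside the threshold in the main test, did not pass at -0.975 in the central 100 bp, -0.0385 per kb and -1.50 within GC bins, nor at -1.32 without runs of 9 or more, -1.38 without shared 20-mers and -1.31 with each run counted once. No member held the composite under any alternative run for it, so it was not tested; its difference was -0.0208, and -0.00846 in the central 100 bp and -0.0155 within GC bins. With the composite counted as an 18th test, the CTCF and repeat differences were at an adjusted permutation p of 0.0368. The same change took TEAD sites per kb (-0.0883) from an adjusted permutation p of 0.0521 to 0.0368. Introns with each run counted once (-11.9) went from 0.0623 to 0.0440. The repeat share, at 0.0521 without the composite, passed in the 3 alternatives run, at -4.35 without runs of 9 or more, -4.94 without shared 20-mers and -3.98 with each run counted once. KLF sites no longer passed against gaps at 0.946 within 5 points of GC content. Leaving out large runs or shared 20-mers and counting each run once were chosen after seeing the data. The list holds no depth for any region, so how far depth set which regions were called cannot be told.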
